A study of Mus musculus with 38 samples.

Results

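The transcripts of 29 genes of cholesterol and fatty acid synthesis were followed through the naive and primed states of mouse pluripotent cells and through the primed to naive transition. They come from a list of symbols of the pathway, matched to the Ensembl identifiers of the gene tables, and the rule itself uses no measured value. All 29 were among the 29267 genes of the tables. The list holds 7 genes of the mevalonate arm, 11 of the sterol arm, 4 regulators and carriers, 5 genes of fatty acid synthesis and 2 sterol exporters. It is not the whole pathway, and 28 further genes of sterol and lipid handling were read beside it.

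The study asked how c-Jun bears on the passage between naive embryonic stem cells (ESCs) and primed epiblast stem cells (EpiSCs), and measured RNA in 38 libraries of 18 groups. ESCs (5 libraries) were grown in N2B27 with 2i and LIF, and 2 of them carry the strain label CBA/CaJ X C57BL/6J while the others carry none. EpiSCs (4 libraries) were grown without feeders in FN medium with Activin A and bFGF, and kEpiSCs (2 libraries) are a stable EpiSC line that overexpresses Klf4 from a CAG promoter and carries an Oct4-GFP reporter. For the primed to naive transition (PNT), kEpiSCs were moved to the chemically defined medium iCD1 and sampled on days 1, 2 and 3 (2 libraries each), or were moved to iCD1 with JNKi (SP600125, an inhibitor of the kinase that phosphorylates c-Jun, at a dose not given for these libraries) for 1, 2 or 3 days (2, 3 and 2 libraries). The stem cells obtained at its end are called kiPSCs (2 libraries). A second set began from wild type (WT) ESCs and from ESCs in which CRISPR guides on either side of the single Jun exon had removed c-Jun (JunKO), and how many JunKO clones were used is not stated in the sources used here. Both were turned into EpiSC-like cells (iEpiSC, 1 library a genotype) and given Klf4 (kiEpiSC, 1 library a genotype), and the kiEpiSCs then spent 3 days in iCD1 without JNKi (2 libraries a genotype) or with it (2 libraries a genotype). The WT set therefore shares the Klf4 transgene with the JunKO set, and the counts do not tell transgene reads from those of the Klf4 gene itself. Each primed, naive or PNT group has its own medium, so cell state and medium cannot be told apart in any comparison of states.

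Cholesterol is made from acetyl-CoA. The mevalonate arm joins acetyl units into isoprenoid units and then into farnesyl pyrophosphate, and the sterol arm condenses these into squalene, closes the rings to lanosterol and trims lanosterol to cholesterol. Transcription of most of the enzymes is raised by SREBP2, the product of Srebf2, when the endoplasmic reticulum is low in sterol, and INSIG1 holds the precursor back when sterol is plentiful, while SREBP1, the product of Srebf1, acts more on fatty acid synthesis. LXR receptors, which sense oxysterols, raise the exporters Abca1 and Abcg1.

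The JunKO labels held at the targeted gene. Jun was at 240.4 TPM (transcripts scaled to gene length and to a fixed total per library) in WT iEpiSCs, at 135 in WT kiEpiSCs, at 143 and 66.5 in WT cells in iCD1 and at 41.6 and 40.4 in WT cells in iCD1 with JNKi. It was at 14.6 TPM in JunKO iEpiSCs, 7.10 in JunKO kiEpiSCs, 5.10 and 5.77 in JunKO cells in iCD1 and 5.01 and 8.63 in JunKO cells in iCD1 with JNKi, all below every WT library. Klf4 separated the iEpiSC and kiEpiSC labels less clearly. It was at 36.6 TPM in WT and 36.3 TPM in JunKO iEpiSCs, and at 62.6 and 40.1 TPM in WT and JunKO kiEpiSCs. In EpiSCs it was at 0.52 to 1.94 TPM, so the iEpiSCs too lay far above EpiSCs. The naive marker list was higher in ESCs than in EpiSCs in 6 of 6 genes and the primed list lower in 5 of 5. Libraries held 2164711 to 15944950 expected counts. EpiSC replicate 1 stood apart from the other EpiSC libraries, with a summed level of the primed marker list of 1327 TPM and of the endoderm list of 101 TPM against at most 416 and 17.3 TPM in the others. Of its primed sum, 764 TPM was T, and of its endoderm sum, 96.3 TPM was Foxa2. The X-linked RNA Xist was at 0.80 TPM in EpiSC replicate 1 and at 328 to 417 TPM in replicates 2 to 4. The Y-linked Eif2s3y was at 39.4 TPM in replicate 1 and at 0.79 to 2.00 TPM in replicates 2 to 4. Sex chromosome content thus differed among the EpiSC libraries. ESC replicate 5 held 471 TPM of 7 fibroblast or feeder markers against 5.1 to 40.1 TPM in the other ESC libraries, and 4 neural markers ranged from 18.8 to 145.2 TPM over all libraries of the 18 groups. The highest neural sum, in kiPSC replicate 1, was nearly all Tubb3 (142 TPM), with Map2 at 1.07, Sox1 at 1.79 and Pax6 at 0 TPM. Tubb3 also held most of the neural sum in ESCs, at 50.2 to 100.3 TPM. The part of these markers in the results was not tested. The ESC and EpiSC comparison gave 23 calls among the 29 genes without EpiSC replicate 1 and 22 without ESC replicate 5. The measurements are of bulk RNA, in which a change in the share of cells of one kind and a change in RNA per cell cannot be told apart. Replicates are numbered but nothing says that they came from separate cultures, so p-values here rest on differences among libraries of a group, and these may be technical.

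Promoters are shown for 4 genes whose transcripts took different courses below: Hmgcs1 and Mvk of the mevalonate arm, Hsd17b7 of the sterol arm and the exporter Abca1. RefSeq promoters (GRCm38.p6, 250 bases before to 50 after the start) matched 22 of the 29 genes, all but Abcg1, Fdft1, Fdps, Scd1, Scd2, Sqle and Stard4. Each stretch runs 5′ to 3′ from 250 to 51 bases before the start, on the strand of the gene, and capitals mark the sterol regulatory element core TCACNCCAC and CCAAT boxes, on either strand.
Hmgcs1, chr13:119690101-119690300, plus strand: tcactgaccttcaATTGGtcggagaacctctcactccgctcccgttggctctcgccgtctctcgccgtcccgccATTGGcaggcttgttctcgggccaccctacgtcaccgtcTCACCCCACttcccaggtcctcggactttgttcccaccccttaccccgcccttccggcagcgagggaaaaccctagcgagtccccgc
Mvk, chr5:114444019-114444218, plus strand: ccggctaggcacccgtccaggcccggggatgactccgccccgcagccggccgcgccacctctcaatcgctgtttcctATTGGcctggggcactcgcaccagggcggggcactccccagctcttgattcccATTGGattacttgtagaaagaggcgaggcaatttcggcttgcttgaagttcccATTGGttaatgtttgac
Hsd17b7, chr1:169969256-169969455, minus strand: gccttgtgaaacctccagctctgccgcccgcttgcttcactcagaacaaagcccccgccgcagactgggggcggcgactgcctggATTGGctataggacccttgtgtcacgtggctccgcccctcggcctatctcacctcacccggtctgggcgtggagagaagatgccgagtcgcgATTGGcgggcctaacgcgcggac
Abca1, chr4:53159946-53160145, minus strand: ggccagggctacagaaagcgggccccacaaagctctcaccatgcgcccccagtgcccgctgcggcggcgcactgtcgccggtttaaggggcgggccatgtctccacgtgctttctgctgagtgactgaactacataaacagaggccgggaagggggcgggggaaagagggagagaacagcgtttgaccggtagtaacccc
The Hmgcs1 stretch holds 1 sterol regulatory element core, with its first base 137 bases before the start, and 2 CCAAT boxes. The Mvk stretch holds 3 CCAAT boxes, that of Hsd17b7 holds 2, and that of Abca1 has no capitals. Over the whole 300-base windows, TCACNCCAC was found in 1 of the 22 promoters and in 1.46% of the promoters of 18458 genes. CCAAT, the box bound by NF-Y, was found in 19 of 22 (86.4%) and in 41.74% of all genes, and was missing from the windows of Abca1, Acaca and Acat2. The Acaca window (chr11:84195188-84195487) lies inside the gene (chr11:84129672-84401651, plus strand), so the promoter at its annotated start was not searched for any motif. The GC box GGGCGG bound by Sp1 was found in 19 of 22 and in 48.65% of all genes. No capitals above overlap another motif searched. These matches describe letters in a window and are not measured binding sites.

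**Figure D1:**
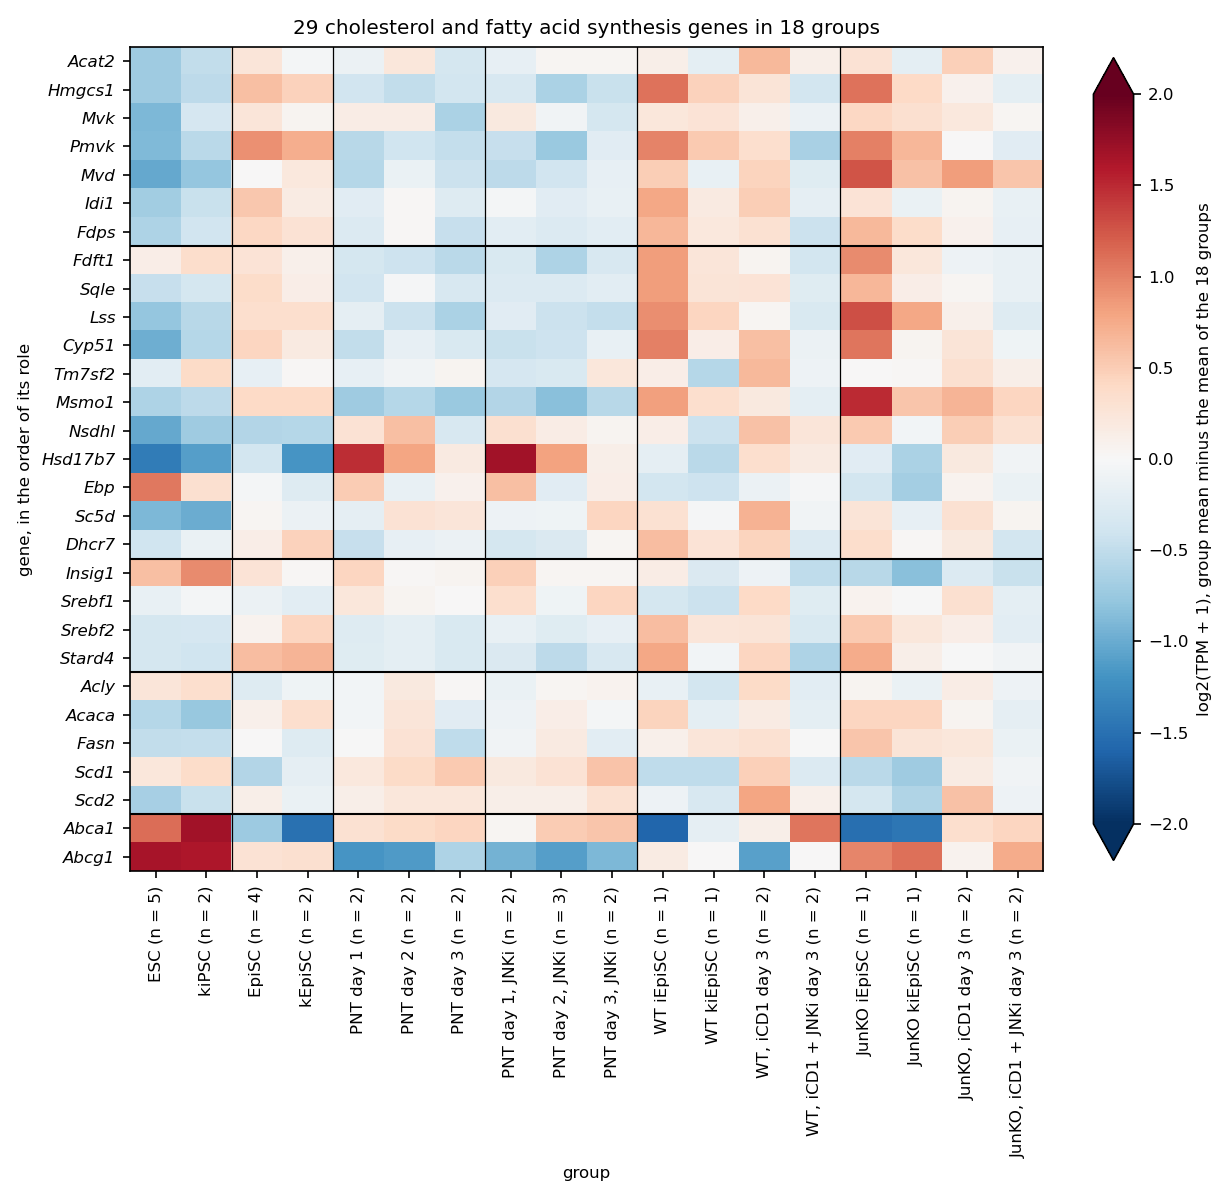
Heat map of the 29 genes (rows, ordered by role) in the 18 groups (columns). Colour is the group mean of log2(TPM + 1) minus the mean of the 18 group means of that gene, so each row shows where that gene was high or low and not its level. The 7 genes of the mevalonate arm are lower in the ESC and kiPSC columns than in the EpiSC and kEpiSC columns, while Abca1 and Abcg1 are high in ESCs and kiPSCs.

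Naive ESCs held less RNA of most enzymes of cholesterol synthesis than primed EpiSCs. The 7 mevalonate genes together were at 997 ± 130.1 TPM (SD, n = 5) in ESCs and 2301 ± 488 TPM (SD, n = 4) in EpiSCs, and the 11 sterol genes at 871 ± 153 and 1377 ± 360.2 TPM. By edgeR with Benjamini-Hochberg adjustment over all 13923 genes tested and a threshold of 0.05, 18 of the 29 genes were lower in ESCs and 5 were higher. Of all genes tested, 23.8% were called lower and 27.1% higher. The median log2 fold change of the 29 genes, ESC over EpiSC, was -0.842, and that of all genes tested was 0.025. The libraries of the 2 states also differed technically. The effective gene length used by RSEM was shorter than the gene by a median of 73.48 to 73.49 bases in ESC replicates 1 to 4. In ESC replicate 5 this gap was 176.32 bases, and in the EpiSC libraries it was 189.09 to 192.14 bases. State and library type thus went largely together here, and the part of library type was not tested.

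All 7 mevalonate genes were lower in ESCs. Hmgcs1, the HMG-CoA synthase (chr13:119690379-119708260), was at 237, 192, 226, 171 and 243 TPM in the 5 ESC libraries and at 268, 589.6, 672 and 734 TPM in the 4 EpiSC libraries, with a log2 fold change of -1.42 ± 0.21, adjusted p = 9.44e-05 (± SE here and below). The groups did not overlap, and EpiSC replicate 1 was much closer to the ESCs than the other EpiSC libraries were. Pmvk, the phosphomevalonate kinase, had the largest fall of the arm, from 167, 296, 264 and 252 TPM in EpiSCs to 43.96, 69.96, 85.4, 62.9 and 89.7 TPM in ESCs (-1.74 ± 0.21, adjusted p = 2.24e-05). Mvk, the mevalonate kinase, was at 77.3, 73.5, 69.8 and 84.9 TPM in EpiSCs and 35.1, 29.98, 36.7, 43.1 and 27.5 TPM in ESCs (-1.19 ± 0.14, adjusted p = 1.8e-05). Mvk was the member of the arm in which EpiSC replicate 1 lay within the other EpiSC libraries. Idi1, the isopentenyl pyrophosphate isomerase, was at 97.2, 255, 319 and 339 TPM in EpiSCs and 105, 92.8, 90.99, 60.5 and 148 TPM in ESCs (-1.39 ± 0.28, adjusted p = 0.00111), and here EpiSC replicate 1 lay inside the ESC range. Acat2, Mvd and Fdps, which open the arm, decarboxylate mevalonate pyrophosphate and make farnesyl pyrophosphate, fell by 0.96 to 0.98 on the log2 scale.

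In the sterol arm, 7 of 11 genes were lower in ESCs, 1 was higher and 3 did not pass the test. Cyp51, the lanosterol demethylase, was at 77.8, 52.4, 66.4, 41.01 and 74.5 TPM in ESCs and 85.8, 207, 190.3 and 208 TPM in EpiSCs (-1.51 ± 0.23, adjusted p = 0.000121). Its lowest EpiSC library, replicate 1, was still above the highest ESC library. Lss, the lanosterol synthase, fell by 1.43, Msmo1, the methylsterol monooxygenase, by 1.10, Sc5d, the sterol desaturase, by 1.03, and Sqle, the squalene epoxidase, by 0.86 on the log2 scale. Ebp, the sterol isomerase, went the other way, with 177, 118, 87.8, 94.4 and 53.9 TPM in ESCs and 63.6, 37.99, 31.4 and 56.8 TPM in EpiSCs (0.66 ± 0.26, adjusted p = 0.045). The groups overlapped, since ESC replicate 5 lay below 2 of the EpiSC libraries. Ebp and Nsdhl lie on the X chromosome, and the Y-linked transcript Eif2s3y was at 0 TPM in ESC replicate 1, in which Ebp was highest, and at 0.79 to 2.00 TPM in EpiSC replicates 2 to 4 against 39.4 to 88.0 TPM in the remaining ESC and EpiSC libraries. The part of sex chromosome content in these 2 genes was not tested. Fdft1, the squalene synthase that commits farnesyl units to sterols, was at 157, 138, 160.2, 123 and 136 TPM in ESCs and 108, 155, 181 and 197 TPM in EpiSCs, with overlapping groups (-0.18 ± 0.13, adjusted p = 0.272).

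Of the regulators, Srebf2 fell by 0.49 in ESCs and Stard4, a cytosolic sterol carrier, by 0.996 on the log2 scale. Srebf2 was at 142, 133, 164, 131 and 146 TPM in ESCs and 139, 205, 228 and 212 TPM in EpiSCs (-0.49 ± 0.12, adjusted p = 0.00488). Srebf1 was at 105, 117, 114, 118 and 110.0 TPM in ESCs and 128, 118, 90.7 and 129 TPM in EpiSCs (-0.051 ± 0.14, adjusted p = 0.78), so the ESC levels lay within the EpiSC range. EpiSC replicate 1 lay inside the ESC range for Srebf2. Insig1 was at 251, 166, 174, 144 and 230.5 TPM in ESCs and 60.8, 169, 188 and 255 TPM in EpiSCs and did not pass the test.

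The fatty acid genes did not move as a block. The summed level of the 5 genes was 1491 ± 92.7 TPM in ESCs and 1848 ± 172 TPM in EpiSCs, with 2 genes higher in ESCs, 2 lower and 1 not passing. Both desaturases, which introduce a double bond into saturated fatty acyl-CoA, are in this group and went opposite ways. Scd1 was at 133, 149.9, 164, 160.3 and 194 TPM in ESCs and 106, 92.1, 86.4 and 77.8 TPM in EpiSCs (0.77 ± 0.15, adjusted p = 0.000764). Scd2, the most abundant of the 29 transcripts in both states, was at 540.4, 505, 565, 506 and 539 TPM in ESCs and 752, 956, 833 and 1141 TPM in EpiSCs (-0.84 ± 0.11, adjusted p = 3.3e-05). Neither pair of groups overlapped. Acly, which makes cytosolic acetyl-CoA from citrate, rose in ESCs (0.39 ± 0.11, adjusted p = 0.00862), and Acaca, which makes malonyl-CoA, fell (-0.64 ± 0.13, adjusted p = 0.000877). Fasn, the fatty acid synthase, was at 422, 299, 259.5, 414 and 259 TPM in ESCs and 582, 443, 391 and 432 TPM in EpiSCs and did not pass (-0.30 ± 0.14, adjusted p = 0.0892). RSEM split reads of Acat2, Fdft1, Lss, Msmo1, Scd1 and Scd2 between genes, as their counts were not whole in at least 30 libraries, so levels of these 6 rest in part on that split.

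The sterol exporters were higher in ESCs. Abca1 had expected counts of 151, 127, 26, 144 and 526 in the 5 ESC libraries and of 0, 13, 6 and 24 in the 4 EpiSC libraries (3.11 ± 0.70, adjusted p = 0.00232). Abcg1 was at 6.57, 6.86, 5.49, 10.4 and 8.63 TPM in ESCs and 3.04, 1.67, 2.19 and 2.29 TPM in EpiSCs (1.68 ± 0.28, adjusted p = 3e-04). Abcg1 groups were apart, while in TPM the Abca1 level of ESC replicate 3, 1.05 TPM, lay below that of EpiSC replicates 2 and 4, 2.09 and 1.55 TPM.

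Among the 28 further genes of sterol and lipid handling, 27 were tested, 5 were higher in ESCs and 11 lower. The largest falls were those of the lipoprotein receptors Lrp8 (-3.40 ± 0.30, adjusted p = 1.75e-06) and Vldlr (-3.08 ± 0.31, adjusted p = 5.42e-06), of Soat1, which esterifies cholesterol (-3.30 ± 0.28, adjusted p = 1.24e-06), and of the fatty acid binding protein Fabp5 (-3.09 ± 0.43, adjusted p = 7.05e-05).

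Of the 23 calls between ESCs and EpiSCs, 21 held whichever library was left out. Ebp lost its call without ESC replicate 1, 2 or 4 or EpiSC replicate 2, 3 or 4 (adjusted p = 0.0581 to 0.133), and Dhcr7 without ESC replicate 1, 2, 4 or 5 or EpiSC replicate 2, 3 or 4 (adjusted p = 0.0762 to 0.162). Nsdhl and Fasn gained one without ESC replicate 1 (adjusted p = 0.0145 and 0.0457). An edgeR fit with only the ESC libraries that carry no strain label called 21 of the 29 genes. In it Acly (0.35, adjusted p = 0.0515), Ebp (0.32, adjusted p = 0.293) and Dhcr7 (-0.47, adjusted p = 0.2) lost their calls. Nsdhl gained one there (-0.65, adjusted p = 0.0253). With ESC replicate 5 as the only ESC library, 15 of the 29 genes were called.

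**Figure D2:**
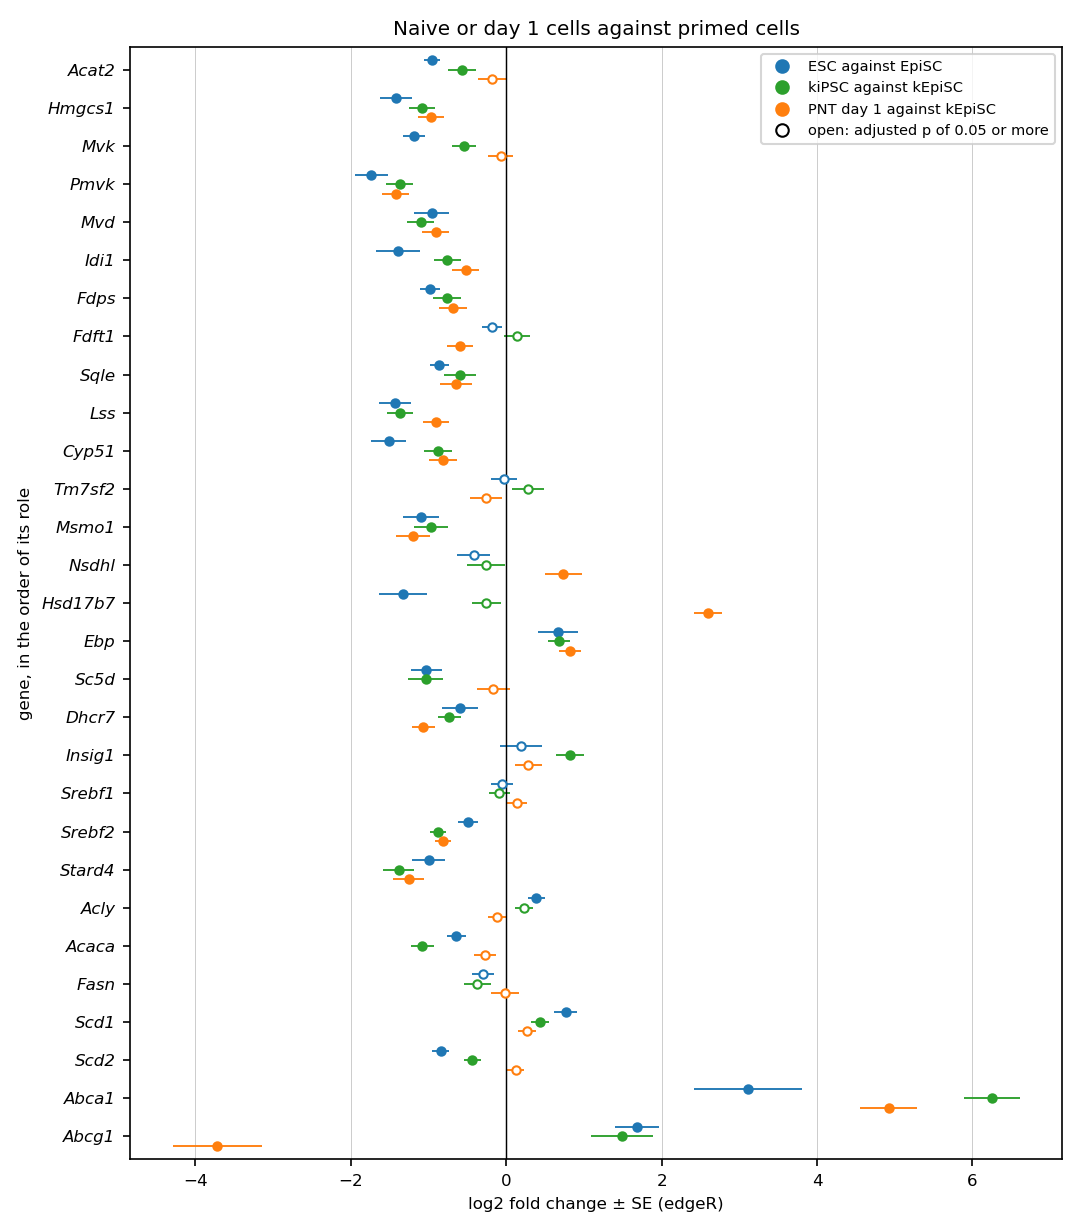
Log2 fold change (x axis, ± SE) of each of the 29 genes (y axis, ordered by role) for ESC over EpiSC, kiPSC over kEpiSC and PNT day 1 over kEpiSC. Filled points have an adjusted p under 0.05 by edgeR, and the vertical line is no change. Pmvk, Hmgcs1, Cyp51 and Lss lie left of the line in all 3 comparisons, and Abcg1 lies right of it in the comparisons of naive cells and left of it on PNT day 1.

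Neither kEpiSCs against EpiSCs nor kiPSCs against ESCs gave a call by edgeR in any of the 29 genes. Of all genes tested 1.26% were called between kEpiSCs and EpiSCs and 0.144% between kiPSCs and ESCs. Between kEpiSCs and EpiSCs 3 of the 29 had an unadjusted p under 0.05, DESeq2 called 1 (Abca1) and limma 0. The median log2 fold change was -0.041 (all genes -0.007), and Klf4 itself was at 65.2 and 103 TPM in kEpiSCs against 0.52, 1.34, 1.54 and 1.94 TPM in EpiSCs. In kEpiSCs Xist was at 0.57 and 0.10 TPM and Eif2s3y at 66.1 and 67.6 TPM. EpiSC replicates 2 to 4, at 328 to 417 and 0.79 to 2.00 TPM, thus differed from them in sex chromosome content. The Klf4 transgene and such differences between lines cannot be told apart here. Between kiPSCs and ESCs 3 of the 29 had an unadjusted p under 0.05, and DESeq2 and limma called 0. The median was 0.188 (all genes -0.002), and fold changes ran from -0.35 for Acaca to 0.64 for Mvk, which was at 52.6 and 49.0 TPM in kiPSCs and 35.1, 29.98, 36.7, 43.1 and 27.5 TPM in ESCs. A missed threshold does not show equal levels.

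The kiPSCs, cells that had completed the PNT, held less RNA of most synthesis enzymes than the kEpiSCs they came from. In kiPSCs against kEpiSCs 17 of the 29 genes were lower and 5 higher, where 29.2% of 14892 genes tested were lower and 28.2% higher, and the median log2 fold change was -0.568 (all genes -0.033). The groups set against each other here share no library with ESCs and EpiSCs. The fit that tested ESCs against EpiSCs did hold the kEpiSC and kiPSC libraries, which entered its gene filter and its estimate of spread. The 2 sets of calls are thus not fully separate. The mevalonate sum was 2002 ± 68.1 TPM in kEpiSCs and 1179 ± 121 TPM in kiPSCs (SD, n = 2 each). All 7 mevalonate genes were lower, from -0.54 for Mvk to -1.37 for Pmvk on the log2 scale. Pmvk was at 197 and 227 TPM in kEpiSCs and 70.8 and 107 TPM in kiPSCs (-1.37 ± 0.17, adjusted p = 6.69e-06), and Hmgcs1 at 478 and 481 against 266 and 223 TPM (-1.08 ± 0.17, adjusted p = 5.24e-05). Both groups stood apart in both genes.

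In the sterol arm 6 genes were lower in kiPSCs and 1, Ebp, was higher. Ebp was at 38.8 and 39.7 TPM in kEpiSCs and 61.6 and 56.9 TPM in kiPSCs (0.68 ± 0.14, adjusted p = 0.000779). Lss had the largest fall at -1.37 ± 0.17, adjusted p = 4.36e-06. Insig1 rose from 122 and 128 to 231 and 248 TPM (0.83 ± 0.18, adjusted p = 0.000961), whereas Srebf2 fell from 238 and 255 to 130.2 and 161 TPM (-0.88 ± 0.10, adjusted p = 2.68e-06) and Stard4 from 86.8 and 94.4 to 36.6 and 48.9 TPM (-1.38 ± 0.20, adjusted p = 2.37e-05). The 2 groups were apart in each of these 3 genes. Acaca was at 88.5 and 88.7 TPM in kEpiSCs and 37.5 and 44.9 TPM in kiPSCs (-1.08 ± 0.15, adjusted p = 1.52e-05), and Scd1 and Scd2 again went opposite ways at 0.43 and -0.43. The exporter Abca1 had 9 and 4 counts in kEpiSCs and 277 and 208 in kiPSCs (6.25 ± 0.36, adjusted p = 1.29e-09).

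Of these 22 calls, 18 held whichever library was left out. Acat2 lost its call without kEpiSC replicate 1 or 2 (adjusted p = 0.0527 and 0.0512), Mvk without kiPSC replicate 2 (0.0579), Sqle without kEpiSC replicate 1 or 2 or kiPSC replicate 2 (0.0564 to 0.0846) and Scd1 without kEpiSC replicate 1 (0.0532). Acly gained a call without kEpiSC replicate 2 or kiPSC replicate 2 (0.044 and 0.03), and Fasn without kiPSC replicate 1 (0.00819). Of the 28 further genes 6 were higher and 12 lower, with the largest fall in Vldlr (-4.90 ± 0.27, adjusted p = 8.02e-10). On PNT day 1, 7 of these 28 were higher and 11 lower than in kEpiSCs (23.2% and 23.1% of all genes tested). On day 2 against day 1 there were 2 and 2 (7.1% and 9.38%), on day 3 against day 2 there were 0 and 6 (6.13% and 6.1%), and in kiPSCs against day 3 there were 8 and 11 (29.3% and 28.6%). None was called between kEpiSCs and EpiSCs, between kiPSCs and ESCs or for JNKi in any setting. Between JunKO and WT cells 1 was called in primed cells (0.357% of all genes tested), 1 in iCD1 (1.7%) and 2 in iCD1 with JNKi (0.92%). The last included Apoe, a lipoprotein component (0.95 ± 0.16, adjusted p = 0.0264).

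Lower levels of many of these genes were already measured after 1 day in iCD1. On PNT day 1, 14 of the 29 genes were lower than in kEpiSCs and 4 higher, where 23.1% of all genes tested were lower and 23.2% higher, and the median log2 fold change was -0.272 (all genes 0.0). The kiPSC and day 1 comparisons share the kEpiSC libraries. On that day the naive marker list summed to 25.5 to 31.8 TPM, against 8.4 to 11.5 TPM in kEpiSCs and 1162.8 to 1700.1 TPM in kiPSCs, and Pou5f1 was at 769 and 745 TPM against 1982 and 2037 TPM in kEpiSCs. The primed list split, with T at 1984 and 2110.3 TPM on day 1 against 51.6 and 43.1 TPM in kEpiSCs, Fgf5 at 0.76 and 0.81 against 60.4 and 41.7 TPM and Otx2 at 2.50 and 0.99 against 99.4 and 120.0 TPM, and its sum was 2182.5 to 2332.5 TPM against 232.1 to 271.6 TPM. The fibroblast list summed to 43.6 to 47.2 TPM on day 1 and 39.7 to 119.5 TPM in kiPSCs, against 17.1 to 21.8 TPM in kEpiSCs, and the endoderm list to 29.2 to 44.0 TPM on day 1, against 17.1 to 26.3 TPM. Both lists split on day 1. Of 6 fibroblast genes tested 2 were higher and 1 lower, with Col1a2 at 23.6 and 19.8 against 5.16 and 2.53 TPM and Col1a1 at 1.19 and 1.89 against 3.33 and 3.25 TPM. Of 3 endoderm genes tested 1 was higher and 1 lower, with Foxa2 at 26.4 and 39.9 against 14.8 and 9.0 TPM and Sox17 at 2.30 and 3.53 against 8.23 and 6.57 TPM. The part of these markers in the results was not tested. The mevalonate sum was 1327 ± 77.3 TPM on day 1, 1538 ± 25.9 TPM on day 2 and 1228 ± 18.7 TPM on day 3 (SD, n = 2 each).

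Pmvk fell to 88.6 and 82.95 TPM on day 1 (-1.42 ± 0.17, adjusted p = 8.59e-06) and Hmgcs1 to 289 and 247 TPM (-0.97 ± 0.17, adjusted p = 0.000258), and kEpiSC libraries were above these in both genes. With Mvd, Idi1 and Fdps, 5 of the 7 mevalonate genes were lower on day 1. In the sterol arm 6 of 11 were lower. Msmo1 fell from 258 and 283 to 136 and 114 TPM (-1.21 ± 0.22, adjusted p = 0.000361) and Dhcr7, which reduces the last double bond, from 169 and 186 to 84.3 and 101 TPM (-1.07 ± 0.15, adjusted p = 3.29e-05). Of the regulators, Srebf2 was at 157 and 150.2 TPM (-0.81 ± 0.10, adjusted p = 1.18e-05) and Stard4 at 49.4 and 44.5 TPM (-1.25 ± 0.20, adjusted p = 1e-04), both below kEpiSCs. No fatty acid gene was called on day 1, and Scd2 was at 838 and 993 TPM against 782 and 758 TPM. Acat2 and Mvk, the remaining mevalonate genes, did not pass the test. Acat2 was at 216 and 214 TPM on day 1 against 229.8 and 228 TPM in kEpiSCs, and Mvk at 80.1 and 63.2 against 67.3 and 66.1 TPM.

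In the sterol arm 3 genes, Hsd17b7, Ebp and Nsdhl, rose on day 1, and Nsdhl lost its call when any of the 4 libraries was left out (adjusted p = 0.0516 to 0.101). Hsd17b7, the ketosteroid reductase of the demethylation complex, was at 12.8 and 14.8 TPM in kEpiSCs, 88.5 and 94.5 on day 1, 58.3 and 55.1 on day 2, 34.2 and 39.2 on day 3 and 12.2 and 17.3 in kiPSCs. Its rise on day 1 (2.60 ± 0.18, adjusted p = 2.36e-08) was followed by falls on day 2 (-0.74 ± 0.17, adjusted p = 0.00682) and day 3 (-0.88 ± 0.18, adjusted p = 0.00486), and kiPSCs were lower again than day 3 (-1.23 ± 0.19, adjusted p = 4.53e-05). The levels were thus highest on day 1, and the kiPSC libraries lay on either side of those of kEpiSCs. Ebp rose on day 1 (0.83 ± 0.14, adjusted p = 0.00022), from 38.8 and 39.7 to 69.1 and 66.3 TPM, and fell on day 2 to 43.9 and 41.1 TPM (-0.48 ± 0.15, adjusted p = 0.031). Nsdhl, the dehydrogenase that acts with Hsd17b7, went from 65.3 and 64.97 to 124 and 113 TPM on day 1 (0.73 ± 0.24, adjusted p = 0.0199), was at 151 and 142 on day 2 and fell to 82.3 and 72.3 TPM on day 3 (-1.07 ± 0.25, adjusted p = 0.0107).

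The exporters separated on day 1. Abca1 counts went from 9 and 4 in kEpiSCs to 124 and 99 on day 1 (4.93 ± 0.37, adjusted p = 5.62e-08), and stayed at 82 to 124 through day 3. Abcg1 counts went from 78 and 72 to 2 and 4 (-3.72 ± 0.58, adjusted p = 8.86e-05), were 2 and 1 on day 2 and 8 and 5 on day 3, and reached 113 and 87 in kiPSCs. Over the group totals, the ratio of Abcg1 CPM (counts scaled to the library total) on day 3 to day 2 was 5.08 (95% counting interval 1.4 to 27.8, which covers counting error only). Both genes are LXR targets, and they moved in opposite directions in iCD1 and in the same direction in kiPSCs.

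On day 2 against day 1, Hsd17b7 and Ebp were the 2 genes lower and 0 were higher (9.38% and 7.1% of all genes tested), although 22 of 29 fold changes were above 0. Unadjusted p-values were under 0.05 for 4 higher and 2 lower genes, DESeq2 called 3 genes and limma 1. Day 3 against day 2 gave 7 lower and 0 higher (6.1% and 6.13% of all genes tested), with 28 of 29 fold changes below 0 and a median of -0.295 (all genes 0.013). The unadjusted p was under 0.05 for 12 lower genes and 1 higher, DESeq2 called 8 and limma 3. The 7 were Acat2, Mvk, Fdps, Nsdhl, Hsd17b7, Acaca and Fasn. Mvk fell from 70.2 and 71.8 to 45.7 and 36.8 TPM (-0.92 ± 0.17, adjusted p = 0.00251) and Fasn from 584 and 527 to 374 and 275 TPM (-1.002 ± 0.18, adjusted p = 0.00251). The days did not overlap in either gene, and these were the 2 calls of the day 3 comparison that held whichever library was left out. Over the same interval Jun rose from 36.96 and 67.8 to 164 and 237 TPM and Pou5f1 fell from 160.1 and 182 to 43.4 and 35.5 TPM. Their part in the falls was not tested.

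kiPSCs against PNT day 3 gave 7 higher and 4 lower, where 29.3% and 28.6% of all genes tested were called, and a median of 0.082 (all genes 0.003). Fdft1 went from 94.6 and 83.5 to 166 and 164 TPM (1.004 ± 0.17, adjusted p = 0.000111) and Insig1 from 102 and 159 to 231 and 248 TPM (1.001 ± 0.18, adjusted p = 0.00022). Sc5d fell from 75.1 and 65.6 to 25.8 and 32.6 TPM (-1.19 ± 0.23, adjusted p = 0.000328) and Scd2 from 919.8 and 1056 to 633 and 601 TPM (-0.56 ± 0.11, adjusted p = 0.000425). Fdft1 had been at 147 and 131 TPM in kEpiSCs and at 83.5 to 101 TPM on the 3 days in iCD1, so the kiPSC libraries lay above all of these. Comparisons of neighbouring days share the libraries of the day between them.

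**Figure D3:**
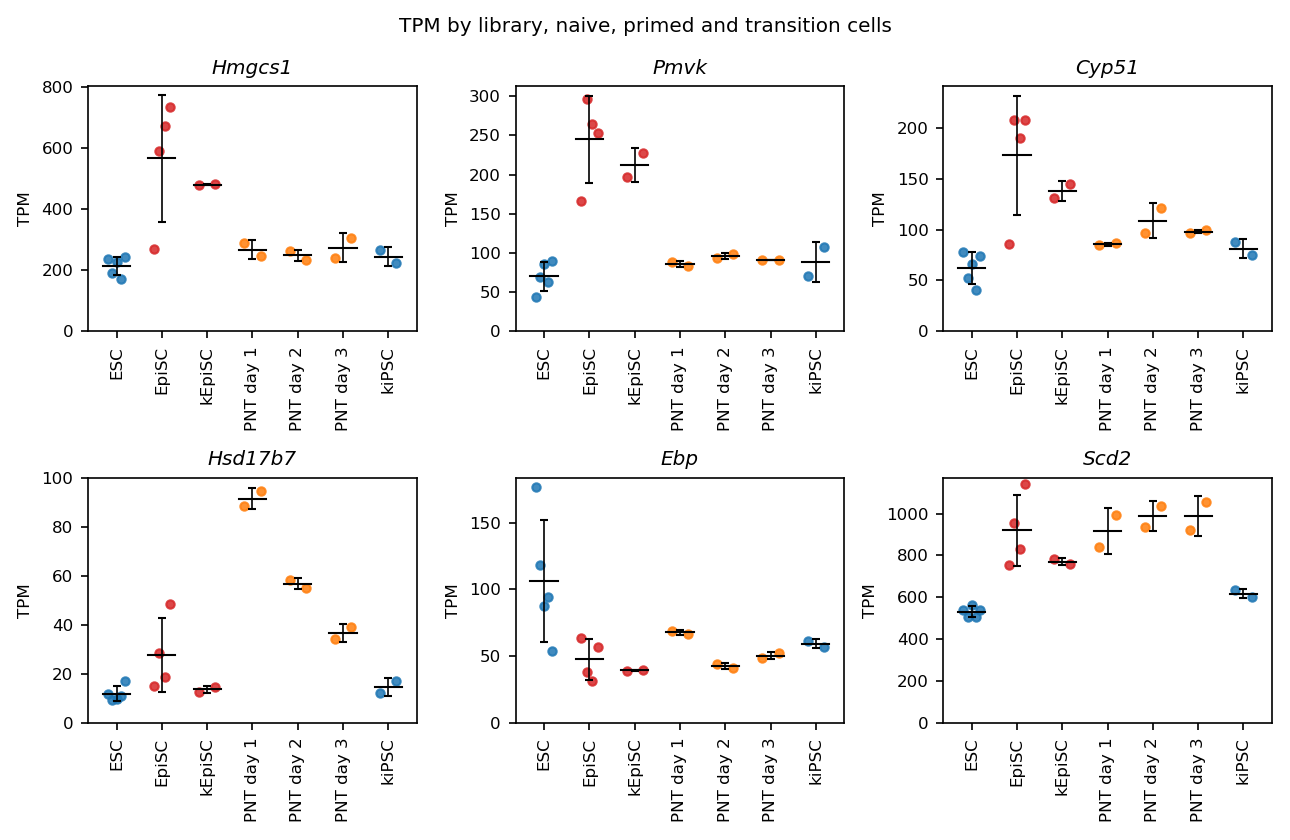
TPM of Hmgcs1, Pmvk, Cyp51, Hsd17b7, Ebp and Scd2 in ESCs, EpiSCs, kEpiSCs, PNT days 1 to 3 and kiPSCs. Dots are libraries, and the line and bar are the group mean ± SD. Pmvk is at 82.95 to 98.6 TPM on days 1 to 3, between the 2 kiPSC libraries, while Hsd17b7 is highest on day 1.

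Single libraries mattered in the day comparisons. On day 1, 14 of 18 calls held whichever library was left out. Idi1 lost its call without kEpiSC replicate 1 or 2 or day 1 replicate 2 (adjusted p = 0.0509 to 0.177), Fdft1 without kEpiSC replicate 1 or either day 1 replicate (0.0502 to 0.0707), Sqle without either kEpiSC replicate or day 1 replicate 2 (0.0546 to 0.129), and Nsdhl when any 1 of the 4 libraries was left out (0.0516 to 0.101). On day 2 Ebp lost its call when any 1 of the 4 libraries was left out (0.113 to 0.165) and Hsd17b7 without day 2 replicate 1 (0.0721). On day 3 Acat2, Fdps and Acaca lost theirs when any 1 of the 4 libraries was left out (0.053 to 0.229), Nsdhl without day 2 replicate 1 (0.0769) or day 3 replicate 2 (0.106), and Hsd17b7 without day 3 replicate 1 (0.0545), and 3 or 4 calls remained of 7. In kiPSCs against day 3, 7 of 11 calls held. Tm7sf2 lost its call without day 3 replicate 2 or either kiPSC replicate (0.0575 to 0.204), Ebp and Acly without day 3 replicate 2 or kiPSC replicate 1 (0.0519 to 0.133), and Acaca without day 3 replicate 1 (0.0796). Mvk gained one without day 3 replicate 1 or kiPSC replicate 2 (0.0374 and 0.0424), and Fasn without kiPSC replicate 2 (0.0264).

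With JNKi in the PNT from kEpiSCs, none of the 29 genes was called by edgeR, DESeq2 or limma on any day. The share of all genes called was 0% on day 1, 0.00672% on day 2 and 0% on day 3, and the difference between the effects of day 3 and day 1 called 0% of genes. Unadjusted p-values were under 0.05 for 0, 1 and 1 of the 29. On day 2, 25 of the 29 fold changes were below 0, and the levels of 10 genes were lower in all 3 JNKi libraries than in both libraries without it, where 7.37% of all genes tested had groups apart in that direction, and 0 were higher, where 9.45% had. Mvk was at 70.2 and 71.8 TPM on day 2 without JNKi and 68.5, 62.7 and 53.1 TPM with it. Nsdhl was at 151 and 142 against 119.9, 120.3 and 85.9 TPM (-0.44 ± 0.22, adjusted p = 1). JNKi replicate 3 was the lowest of the 3 for both. On day 3 the signs ran the other way, with 26 of 29 above 0 and a median log2 fold change of 0.224, which was -0.058 without JNKi replicate 3 and 0.502 without JNKi replicate 2. Pmvk, Srebf1 and Srebf2 were the 3 genes higher in all JNKi libraries of that day, where 12.3% of all genes were, and 0 were lower, where 15.4% were. On day 1, 4 genes were higher and 4 lower in all JNKi libraries, where 17.1% and 14.8% of all genes were. The day 3 JNKi libraries, replicates 2 and 3, differed from each other more than from the libraries without JNKi in the mevalonate sum, at 1135.4 and 1721.9 TPM against 1214.8 to 1241.2 TPM.

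In the second set of lines, none of the 29 genes was called between JunKO and WT cells by edgeR, DESeq2 or limma in primed cells, in iCD1 or in iCD1 with JNKi. The share of all genes called was 0.357% in primed cells, 1.7% in iCD1 and 0.92% in iCD1 with JNKi. Unadjusted p-values were under 0.05 for 6, 3 and 3 of the 29. The Y-linked Eif2s3y was at 6.34 to 28.8 TPM in the WT libraries and at 45.4 to 90.2 TPM in the JunKO libraries. The WT and JunKO lines thus differed at a gene other than Jun. Loss of Jun and other differences between the lines cannot be told apart in these comparisons. Pmvk was at 175 and 147 TPM in WT and 144 and 114 TPM in JunKO cells in iCD1 (-0.31 ± 0.21, adjusted p = 0.612), and Mvd, the decarboxylase, at 193 and 169 against 276 and 205 TPM (0.43 ± 0.20, adjusted p = 0.424). Mvd lay higher in JunKO cells in primed cells as well, at 319.6 TPM in JunKO iEpiSCs and 200.2 in JunKO kiEpiSCs against 186 and 119 TPM in the WT lines (0.74 ± 0.21, adjusted p = 0.19), and in iCD1 with JNKi, at 185 and 205 against 138 and 91.04 TPM (0.72 ± 0.21, adjusted p = 0.123). In every one of these settings the JunKO libraries were above the WT libraries. Msmo1 was at 359 and 303 TPM in JunKO and 266 and 208 TPM in WT cells in iCD1 (0.50 ± 0.21, adjusted p = 0.316). Without JunKO JNKi replicate 1, Stard4 and Msmo1 were higher in JunKO than in WT cells with JNKi (adjusted p = 0.0024 and 0.034), and these calls rest on JunKO JNKi replicate 2 alone. That library held 137.8 TPM of the neural list and 93.6 TPM of the endoderm list, against 48.3 to 50.7 and 8.7 to 9.6 TPM in the WT libraries with JNKi, and their part was not tested. In iCD1 without JNKi the naive list was at 143.6 and 248.8 TPM in JunKO and 29.4 and 49.3 TPM in WT cells. Abcg1 had 9 and 15 counts in JunKO and 1 and 2 in WT cells in iCD1, a ratio of CPM of 7.17 (95% counting interval 2.18 to 37.2).

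JNKi in WT kiEpiSCs went with lower levels of nearly the whole list. With JNKi, 25 of the 29 genes were lower in both libraries than in both libraries of iCD1 alone, where 20.4% of all genes tested were, and Abca1 and Abcg1 were higher in both, where 24.6% were. Of the 29, 24 had an unadjusted p under 0.05, of which 22 were lower. By edgeR 2 were called lower and 0 higher, where 0.151% and 0.333% of all genes were, while DESeq2 called 13 and limma 0. The median log2 fold change was -0.569 over the 29 genes and 0.016 over all genes tested. In the PNT from kEpiSCs, JNKi on day 3 had gone with a median of 0.224 and 26 of 29 fold changes above 0, so the falls here were not seen there on that day. That median was -0.058 without JNKi replicate 3, and on day 2 of that PNT 25 of 29 fold changes were below 0. The mevalonate sum was 2108 ± 188 TPM without and 1338 ± 250.1 TPM with JNKi, and the fatty acid sum 2755 ± 229 and 1835 ± 43.0 TPM (SD, n = 2 each).

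Both called genes fell. Sc5d was at 103 and 90.4 TPM without JNKi and 56.7 and 55.4 TPM with it (-0.76 ± 0.14, adjusted p = 0.0457), and Stard4 at 76.6 and 73.9 against 36.1 and 36.4 TPM (-1.08 ± 0.19, adjusted p = 0.0391). Each lost its call when any of the 4 libraries was left out (adjusted p = 0.116 to 0.387). Pmvk was at 175 and 147 TPM without and 93.6 and 69.5 TPM with JNKi (-0.99 ± 0.21, adjusted p = 0.0832), Dhcr7 at 186 and 164 against 119 and 94.9 TPM (-0.94 ± 0.21, adjusted p = 0.0882), and Scd2 at 1577 and 1337 against 959 and 842 TPM (-0.70 ± 0.16, adjusted p = 0.101). In each of the 5 genes the groups were apart. Srebf2 was at 227 and 213 against 149 and 146 TPM (-0.59 ± 0.13, adjusted p = 0.0831). The exporters lay on the other side, with Abca1 at 15 and 46 counts without and 87 and 111 with JNKi, and Abcg1 at 1 and 2 against 5 and 20, a ratio of CPM of 7.56 (95% counting interval 2.31 to 39.1). Ebp was at 39.3 and 47.5 against 39.8 and 53.6 TPM, with overlapping groups. Pou5f1 moved beside these genes, at 18.5 and 73.8 TPM without and 187 and 327 TPM with JNKi, as did the naive marker list, at 29.4 and 49.3 TPM without and 149.7 and 220.6 TPM with JNKi. The primed list was at 154.7 to 208.3 TPM without and 362.9 to 438.9 TPM with JNKi, most of it in T (157 and 111 against 380.0 and 327 TPM), the mesoderm factor Brachyury. The neural list was at 34.8 to 37.9 against 48.3 to 50.7 TPM and the endoderm list at 4.2 to 4.7 against 8.7 to 9.6 TPM. Neither list moved as a whole. Tubb3 was at 2.48 and 4.75 against 16.8 and 19.8 TPM, while Pax6 was at 15.6 and 20.1 against 17.6 and 13.7 TPM. Foxa2 was at 0.79 and 0.30 against 6.06 and 5.79 TPM, while Gata6 was at 3.01 and 3.07 against 2.22 and 1.42 TPM. No tested gene of either list was called. The part of Pou5f1 and these markers in the falls was not tested.

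**Figure D4:**
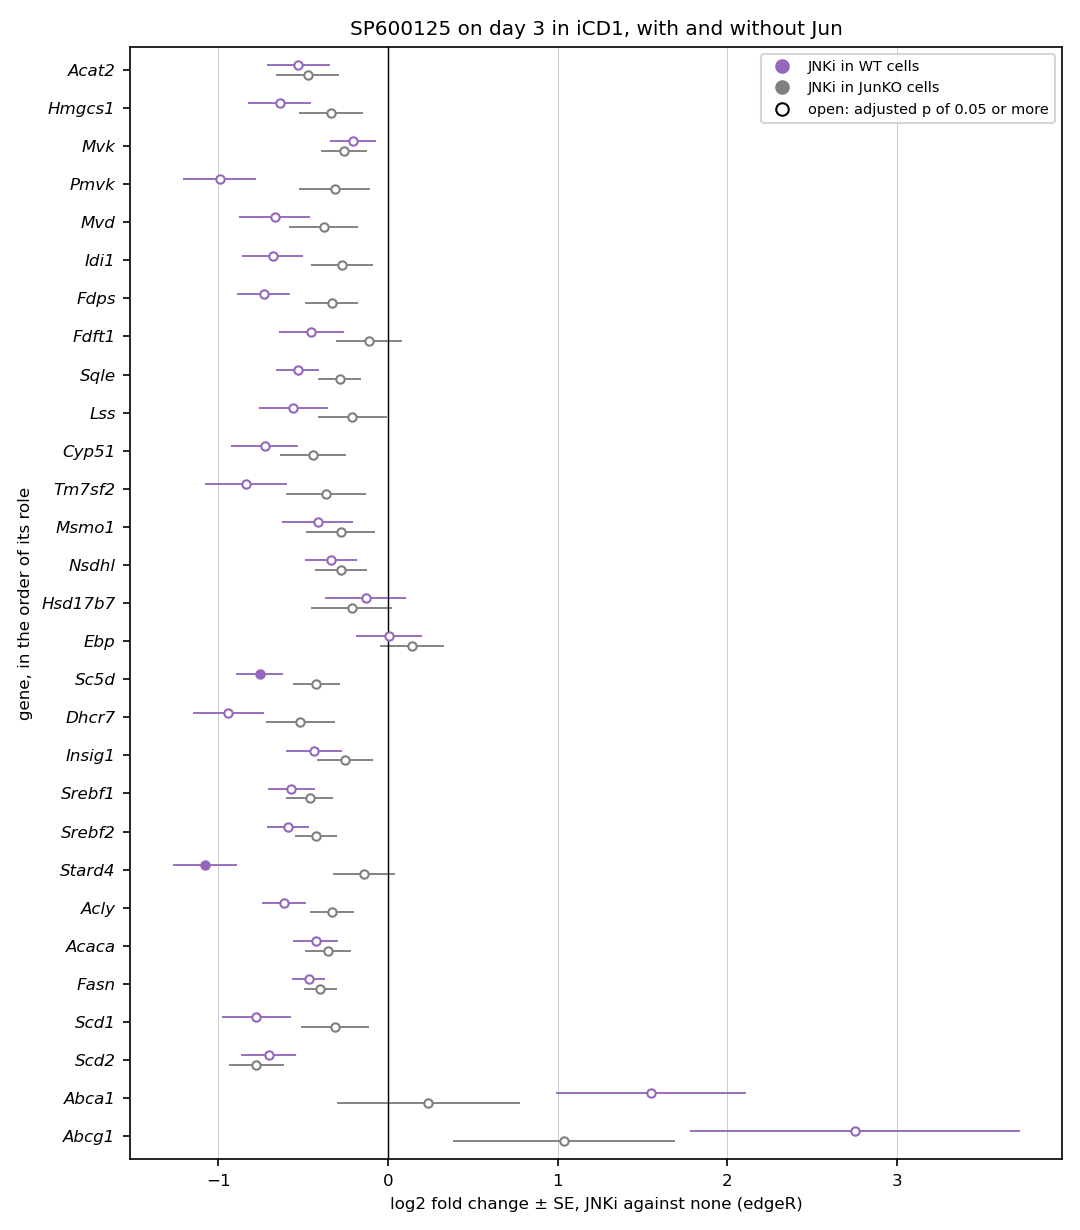
Log2 fold change (x axis, ± SE) of each of the 29 genes (y axis, ordered by role) for iCD1 with JNKi over iCD1 alone, in WT and in JunKO kiEpiSCs on day 3. Filled points have an adjusted p under 0.05 by edgeR. In both genotypes 26 of 29 points lie left of 0, and Sc5d and Stard4 in WT cells are the filled points.

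In JunKO kiEpiSCs the same treatment gave 0 calls by edgeR, where 0.0476% of all genes were called, and 0 by limma, while DESeq2 called Scd2. Unadjusted p-values were under 0.05 for 11 genes, all lower, and 13 of the 29 genes were lower in both JNKi libraries, where 13.5% of all genes were, and 0 higher, where 23.3% were. Scd2 was at 1442 and 1113 TPM without and 859.8 and 707 TPM with JNKi (-0.78 ± 0.16, adjusted p = 0.127). Pmvk was at 144 and 114 against 88.9 and 130.5 TPM (-0.31 ± 0.21, adjusted p = 0.587) and Stard4 at 56.2 and 54.97 against 39.9 and 70.4 TPM (-0.14 ± 0.18, adjusted p = 0.814), and the groups overlapped in both. The difference between the effects of JNKi in the 2 genotypes called 0 of the 29 genes and 0% of all genes by edgeR, with 2 of the 29 at an unadjusted p under 0.05 and 0 calls by DESeq2 and limma. It was largest among the synthesis genes and carriers for Stard4 (0.94 ± 0.26, adjusted p = 0.832) and Pmvk (0.68 ± 0.30, adjusted p = 0.832). Without JunKO JNKi replicate 1, so that replicate 2 alone stood for the group, Srebf1 and Scd2 were called lower with JNKi in JunKO cells (adjusted p = 0.0389 and 0.0107) and the Stard4 difference passed (0.00787). In that library the neural and endoderm lists, given above, were above the 53.6 and 38.6 TPM of replicate 1. The part of these markers in the calls was not tested.

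**Figure D5:**
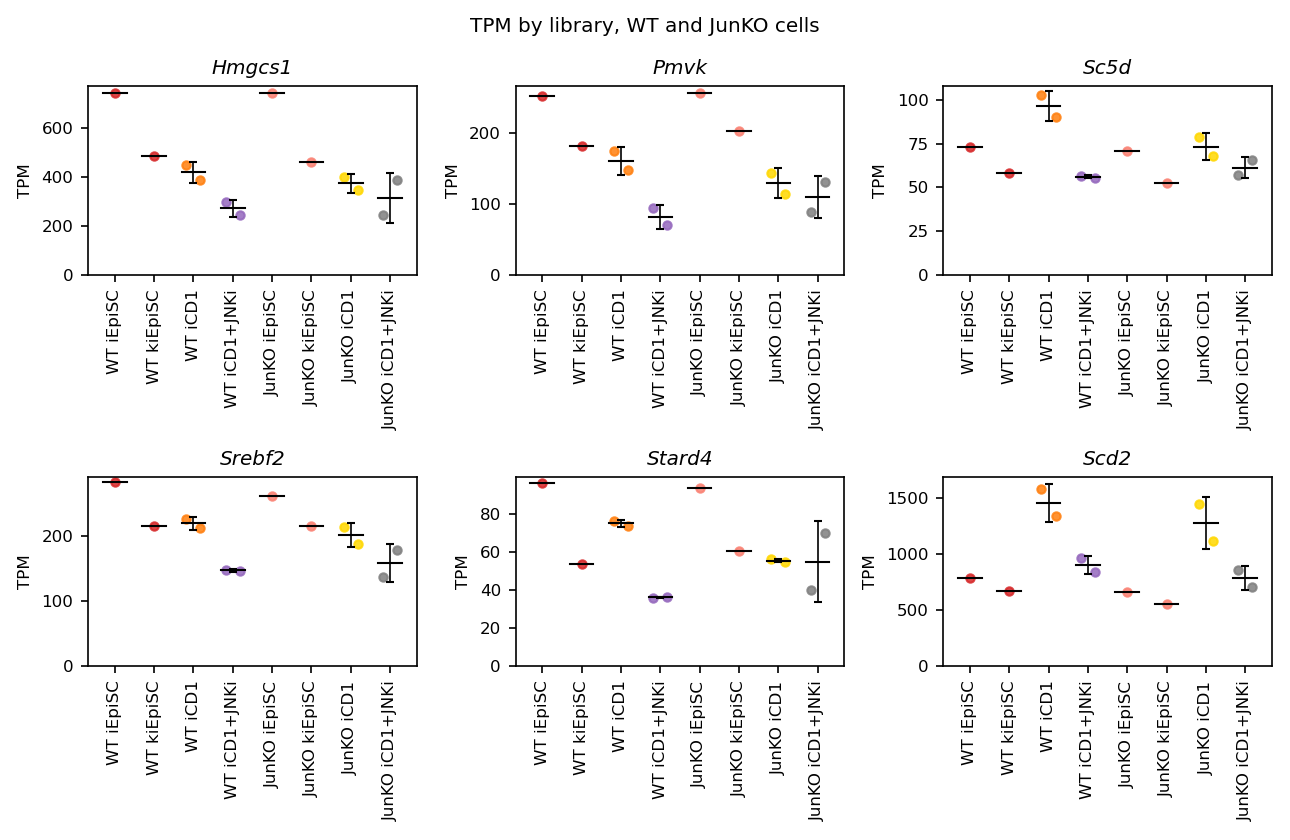
TPM of Hmgcs1, Pmvk, Sc5d, Srebf2, Stard4 and Scd2 in the 8 WT and JunKO groups (iEpiSC, kiEpiSC, iCD1 and iCD1 with JNKi). Dots are libraries, and the line and bar are the mean ± SD where a group has 2 libraries. The 2 WT libraries with JNKi lie below the 2 WT libraries in iCD1 alone in all 6 genes.

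After 3 days in iCD1, WT kiEpiSCs held a mevalonate sum of 2108 ± 188 TPM, against 2665 TPM in WT iEpiSCs and 1892 TPM in WT kiEpiSCs, and PNT day 3 from kEpiSCs had 1228 ± 18.7 TPM. That the 2 sets of lines differ was not tested. Against both WT primed lines, 10 of the 29 genes were higher in iCD1 and 4 lower, where 16.1% of all genes tested were called in each direction, DESeq2 called 10 and limma 8. The fibroblast list was at 74.5 to 96.8 TPM in iCD1 against 9.9 to 18.8 TPM in these primed lines. Col3a1 held most of it, at 56.0 and 71.0 TPM in iCD1, while Thy1 was lower there, at 2.30 and 3.67 against 10.8 and 6.98 TPM. The endoderm list was at 4.2 to 4.7 against 16.2 to 35.3 TPM. Foxa2 was lower in iCD1, while Gata6 was at 3.01 and 3.07 against 1.04 and 1.73 TPM. The part of these markers in the calls was not tested. Scd2 was at 787 TPM in WT iEpiSCs, 671 in WT kiEpiSCs and 1577 and 1337 in iCD1 (0.92 ± 0.16, adjusted p = 0.00197). Scd1 was at 95.6 and 95.5 TPM in these primed lines and 220.0 and 164 TPM in iCD1 (0.92 ± 0.21, adjusted p = 0.00652). Both desaturases thus went the same way here. Hsd17b7 was at 28.4 and 22.0 TPM in the primed lines and 33.4 and 50.2 TPM in iCD1 (0.93 ± 0.25, adjusted p = 0.0159). Hmgcs1 was at 745 TPM in WT iEpiSCs, 483 TPM in WT kiEpiSCs and 449 and 389 TPM in iCD1 (-0.61 ± 0.19, adjusted p = 0.0293). Abca1 had 0 and 3 counts in the primed lines and 15 and 46 in iCD1, a ratio of CPM of 20.9 (95% counting interval 6.81 to 104), while Abcg1 had 11 and 11 counts in the primed lines and 1 and 2 in iCD1, a ratio of 7.15 (2.15 to 37.3) the other way. None of the 14 calls held in every fit with a library left out. Without WT iEpiSC 0 were left (adjusted p = 0.0506 to 0.279), without WT kiEpiSC 1, and 7 or 5 without iCD1 replicate 1 or 2. Of the 28 further genes, 6 were higher and 5 lower, beside the 16.1% of all genes in each direction. WT iCD1 libraries are shared by this comparison, the JNKi comparison and the JunKO comparison.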

How the data were processed

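RNA was measured in 38 libraries of 18 groups, taken from the sample labels. The authors deposited RSEM gene tables with expected counts, TPM and FPKM. They name bcl2fastq, Bowtie2 and RSEM against mm10, with versions not given in the sources used here. The labels name a TruSeq kit and the methods another one. Deposited expected counts were rounded to whole numbers for tests, deposited TPM was used for levels, and deposited FPKM was not used. Counts were tested with the quasi-likelihood test of edgeR 4.0.16 (TMM, filterByExpr with a minimum of 10, group means, Benjamini-Hochberg over all genes tested, 0.05) in 3 fits: 13 libraries of ESC, EpiSC, kEpiSC and kiPSC, 17 libraries of the PNT, and 12 libraries of the WT and JunKO set, in which iEpiSC and kiEpiSC formed 1 primed group a genotype and the line was a covariate. These tested 13923, 14892 and 12613 genes, and all 29 members passed each filter. Dispersion, as a coefficient of biological variation, was 0.28, 0.142 and 0.157. A log2 fold change is given with its SE, taken from the test statistic. Depth of 2164711 to 15944950 counts limits low genes such as Abca1 and Abcg1, for which counts and exact ratio intervals are given. Alternatives were RLE size factors, 2 other filters, limma 3.58.1 on log2(TPM + 1), DESeq2 1.42.0, a replicate block, other library sets and leaving out each library. Groups of 4 or 5 libraries were screened for single libraries far from the rest. The scripts were checked on simulated counts. The members and lists were chosen with earlier results of these data known. All 29 members could be named. Of the 28 further genes, the 4 with the largest changes could be. No pair of libraries agreed within sampling noise (chi-square per degree of freedom 4.16 to 38.89). Comparison of state with medium, and JNKi dose, could not be addressed.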

Additional observations from a re-analysis of the deposited data

Results flagged for a closer look

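In 58 sets of 1 gene in 1 group of 4 or 5 libraries, the gap between an extreme library and its nearest neighbour was compared with the whole range of the group, and 5 passed the limit for 1 library far from the rest. Chance flags about 1 in 20 groups. The 4 in EpiSCs were all in replicate 1, in which Cyp51 was at 85.83 TPM against 190.29 to 207.8 in the other EpiSC libraries, Msmo1 at 133.3 against 330.49 to 345.18, Nsdhl at 42.46 against 70.37 to 74.51, and Acly at 234.42 against 315.47 to 320.66. The fifth was Dhcr7 in ESC replicate 3, at 141.62 TPM against 80.17 to 95.7 in the other ESC libraries. Without EpiSC replicate 1, 23 members were called between ESCs and EpiSCs.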

How the results depend on the processing

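Of 7268 values of single genes under the alternatives, 6945 kept their side of the threshold, 189 lost a call, 134 gained one and 0 changed sign with a call. Changes of sign without a call were not counted, so the 6945 can include them. Of 99 calls, 62 held whichever library was left out. The counts of members called that moved by more than 1.5 times were as follows, and the cause was not tested. With ESC replicate 5 as the only ESC library, ESC against EpiSC gave 15. kEpiSC against EpiSC gave 1 by DESeq2 and 2 with all 38 libraries in 1 fit, and kiPSC against ESC gave 1 in that fit. PNT day 2 against day 1 gave 8 with no filter, 1 by limma, 12 with only the groups compared and 0 with all 38 libraries. Day 3 against day 2 gave 11 with no filter, 3 by limma and 4 with all 38 libraries. JunKO against WT gave 2 in iCD1 with no filter, 3 with no filter and JNKi, and in primed cells 2 with no filter and 5 with only the groups compared. JNKi in WT cells gave 21 with no filter, 0 by limma, 13 by DESeq2 and 9 with only the groups compared. JNKi in JunKO cells gave 7 with no filter, 1 by DESeq2 and 1 with all 38 libraries, and the difference between genotypes gave 1 with no filter. WT iCD1 against WT primed gave 8 by limma and 7 with all 38 libraries.

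Leaving out 1 library at a time gave 0 to 1 calls for day 2 against day 1, 3 to 4 for day 3 against day 2, 0 to 2 for JunKO against WT with JNKi, 0 to 0 for JNKi in WT cells, 0 to 2 for JNKi in JunKO cells, 0 to 1 for the difference between genotypes and 0 to 7 for WT iCD1 against WT primed. Where that left 1 library in an arm, it was assumed to vary like the other groups.

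No label says what a shared replicate number marks, and it was not taken as a pairing. Deviations of same-numbered libraries from their group means correlated at -0.055 to 0.106, -0.066 to 0.249 and -0.017 to 0.322 in the 3 fits. With the replicate block, 11 members were called lower for JNKi in WT cells (Pmvk, Fdps, Sqle, Cyp51, Dhcr7, Srebf2, Acly, Fasn and Scd2 beside Sc5d and Stard4), Scd2 for JNKi in JunKO cells and Mvd for JunKO against WT with JNKi (0.744, adjusted p = 0.03), that is 1 each, and the other counts stayed within 1.5 times.

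With 2 libraries in most groups and totals down to 2164711 counts, small changes and genes with few counts such as Abcg1 could not be resolved. Alternatives were run for the 29 members and not for the 28 further genes.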
